A study of Homo sapiens with 6 samples.

Results

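*CPA4* encodes carboxypeptidase A4 and lies in a row of carboxypeptidase A genes on the long arm of human chromosome 7, next to a cluster of imprinted genes. The genes described here are *CPA4* and 6 neighbours, *CPA5*, *CPA1*, *MEST*, *COPG2*, *TSGA13*, and *KLF14*, which are 7 of the 60623 genes in the table of counts. *CPA4* was chosen because its level rose strongly and evenly after treatment, and the other 6 were chosen by position, so the values of *CPA4* are given as a description with no test. High-throughput RNA-Seq was performed in TC28a2 cells, an immortalized human chondrocyte line, treated for 24 hours with 2 μM mocetinostat, a class I histone deacetylase (HDAC) inhibitor, or with the solvent DMSO. Each condition had 3 samples, described by the study as independent experiments. All 6 samples were cells of this one line, which carried no other treatment named in the labels.

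Metallocarboxypeptidases remove single amino acids from the C-terminal end of peptides and proteins. CPA1 is a digestive enzyme made by acinar cells of the pancreas, whereas CPA4 is a secreted enzyme that was originally described as a transcript induced by an HDAC inhibitor in prostate cancer cells. An imprinted gene is expressed mainly from the copy inherited from one parent. *MEST* encodes a hydrolase-like protein and is expressed mainly from the paternal copy, *KLF14* encodes a Krüppel-like transcription factor expressed from the maternal copy, and *COPG2* encodes the γ2 subunit of COPI, the coat of vesicles that carry cargo from the Golgi to the endoplasmic reticulum. *TSGA13* is a gene expressed in testis. Counts per gene do not separate the parental copies, so nothing below concerns allelic expression.

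The genes lie in GRCh38 within 1 short stretch. *CPA4* (ENSG00000128510) spans chr7:130293134-130324180 on the plus strand, and its neighbours start 51.7 kb (*CPA5*), 87.2 kb (*CPA1*), 193 kb (*MEST*), 213 kb (*COPG2*), 376 kb (*TSGA13*), and 438 kb (*KLF14*) farther along the chromosome, counting from each gene's lowest coordinate. The last 3 are on the minus strand. The 3′ ends of *MEST* (chr7:130486171-130506465) and *COPG2* (chr7:130506238-130668748) run into each other, and 228 bp of exon are shared on opposite strands, which is 4.78% of the exon length of *MEST* and 5.51% of that of *COPG2*. *MEST* exons also overlap those of the antisense transcript *MESTIT1* by 484 bp and those of another antisense transcript, *AC007938.2* (ENSG00000270823), by 602 bp, or 12.6% of the *MEST* exon length. The sources used here do not state whether counting used strand, so reads in these stretches cannot be assigned to one gene with certainty. No annotated exon of another gene overlaps *CPA4*, *CPA5*, *CPA1*, or *KLF14*.

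The RefSeq promoter table (GRCh38.p14) held 10 start sites for 6 of the 7 genes, 5 of them for *MEST*. The 250 bases before the start sites of *CPA4* and *MEST*, the genes with the most counts, are printed. For *MEST*, the window with the most CpG was taken, and where another held as many, the one with the higher coordinate. Capitals mark matches to AP-1 and TATA motifs in *CPA4* and to GC boxes in *MEST*.
CPA4, chr7:130292911-130293160, plus strand: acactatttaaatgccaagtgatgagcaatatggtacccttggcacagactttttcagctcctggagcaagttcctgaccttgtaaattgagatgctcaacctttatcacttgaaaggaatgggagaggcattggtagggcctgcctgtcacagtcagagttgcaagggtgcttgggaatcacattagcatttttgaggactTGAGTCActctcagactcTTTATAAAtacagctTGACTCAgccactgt
MEST, chr7:130491835-130492084, plus strand: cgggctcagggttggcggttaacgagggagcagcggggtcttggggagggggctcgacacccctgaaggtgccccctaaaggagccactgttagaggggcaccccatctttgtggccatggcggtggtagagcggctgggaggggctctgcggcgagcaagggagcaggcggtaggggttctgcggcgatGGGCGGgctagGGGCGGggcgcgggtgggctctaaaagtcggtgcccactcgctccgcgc
The *CPA4* sequence held 0 CpG dinucleotides and 44.4% G or C. The *MEST* sequence, which is that of the start site at 130492085, held 20 CpG and 69.6% G or C, and the windows of the other *MEST* start sites held between 9 and 20 CpG and 44%, 46.8%, 62%, and 68.4% G or C, so that the difference from *CPA4* in base composition depends on the start site. *COPG2* had 30 CpG, *KLF14* 27, *CPA1* 9, and *TSGA13* 1, against a median of 11 over 35116 promoters of the same length.

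Motifs were chosen after these sequences had been read, and a match is a description of letters, not of a bound factor. The AP-1 motif (TGAGTCA, both strands) occurred 48 to 42 and 15 to 9 bases before the *CPA4* start site, and 0.182% of all promoters in the table held 2 or more such matches, while 4.20% held at least 1. Between them, the TATA motif (TATAAA, both strands) matched in a pair of overlapping positions, 30 to 25 and 28 to 23 bases before the start, and 10.7% of promoters held at least 1 match. A GC box (GGGCGG, both strands) was found 2 times in the printed *MEST* sequence (in 2 of the 5 *MEST* windows), 2 times in *COPG2*, and 3 times in *KLF14*, compared with at least 1 in 42.6% of all promoters. The CCAAT box (CCAAT, both strands) matched 1 time in the *CPA4* window, 120 to 116 bases before the start, and 1 time in each of 2 *MEST* windows, and 32% of promoters held at least 1. The consensus motif of NRF1 (both strands), the last of the 5 motifs searched, matched in 1 *MEST* window, that of the start site at 130486347, and in 1.03% of promoters. The *CPA4* window held no GC box, which says only that these letters are not there. The annotated gene body of *CPA4* in GENCODE starts 27 bases before the RefSeq start site, inside the printed sequence.

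Total counts per sample ranged from 1619344 to 11031132, and the smallest total belonged to mocetinostat replicate 2. The quasi-likelihood test of edgeR, with p adjusted by the Benjamini-Hochberg method over 13966 genes, gave an adjusted p under 0.05 for 64.3% of genes: 32.9% rose and 31.4% fell. The study's thresholds, which also ask for an absolute log2 fold change over 1, gave 20.2% upregulated genes (URGs) and 8.18% downregulated genes (DRGs). The 2 conditions did not overlap for 66.5% of the genes tested. Any count below is to be read against these shares, because a change in either direction was common in these cells. Levels are given as CPM, counts per 1000000 counts of a library after scaling with TMM factors. Of the chondrocyte markers, 8 of 10 passed the filter on low counts, 4 of them only through the mocetinostat samples. *SOX9* had from 301 to 1129 counts per sample, whereas *SOX6* and *COL9A1* had 7 counts or fewer in every sample. Of 7 fibroblast markers, *COL1A1* had from 6701 to 44092 counts, *COL3A1* from 349 to 5583, and *THY1* from 478 to 1717, whereas *COL1A2*, *LUM*, *PDGFRA*, and *DCN* had at most 71. Pancreatic acinar markers were near 0: none of 16 passed the filter, none had more than 8 counts in any sample, and 4 had 0 counts throughout. Their summed level was 1.17 to 1.88 CPM with DMSO and 4.92 to 8.61 CPM with mocetinostat. The summed level of the chondrocyte markers was 116 to 140.1 CPM with DMSO and 259 to 299 CPM with mocetinostat, and all 8 tested rose. That of the fibroblast markers was 4621 to 5585 CPM and 4292 to 4665 CPM, with 4 rises and 2 falls among 6 tested. Of these 6, *COL1A2*, *LUM*, and *PDGFRA* passed the filter only through the mocetinostat samples. These 3 are among the 4 rises, and their calls give no support of their own. The same holds for the 4 chondrocyte markers that passed in this way. In such bulk samples, fewer cells of a type and less RNA per cell cannot be told apart.

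**Figure D1:**
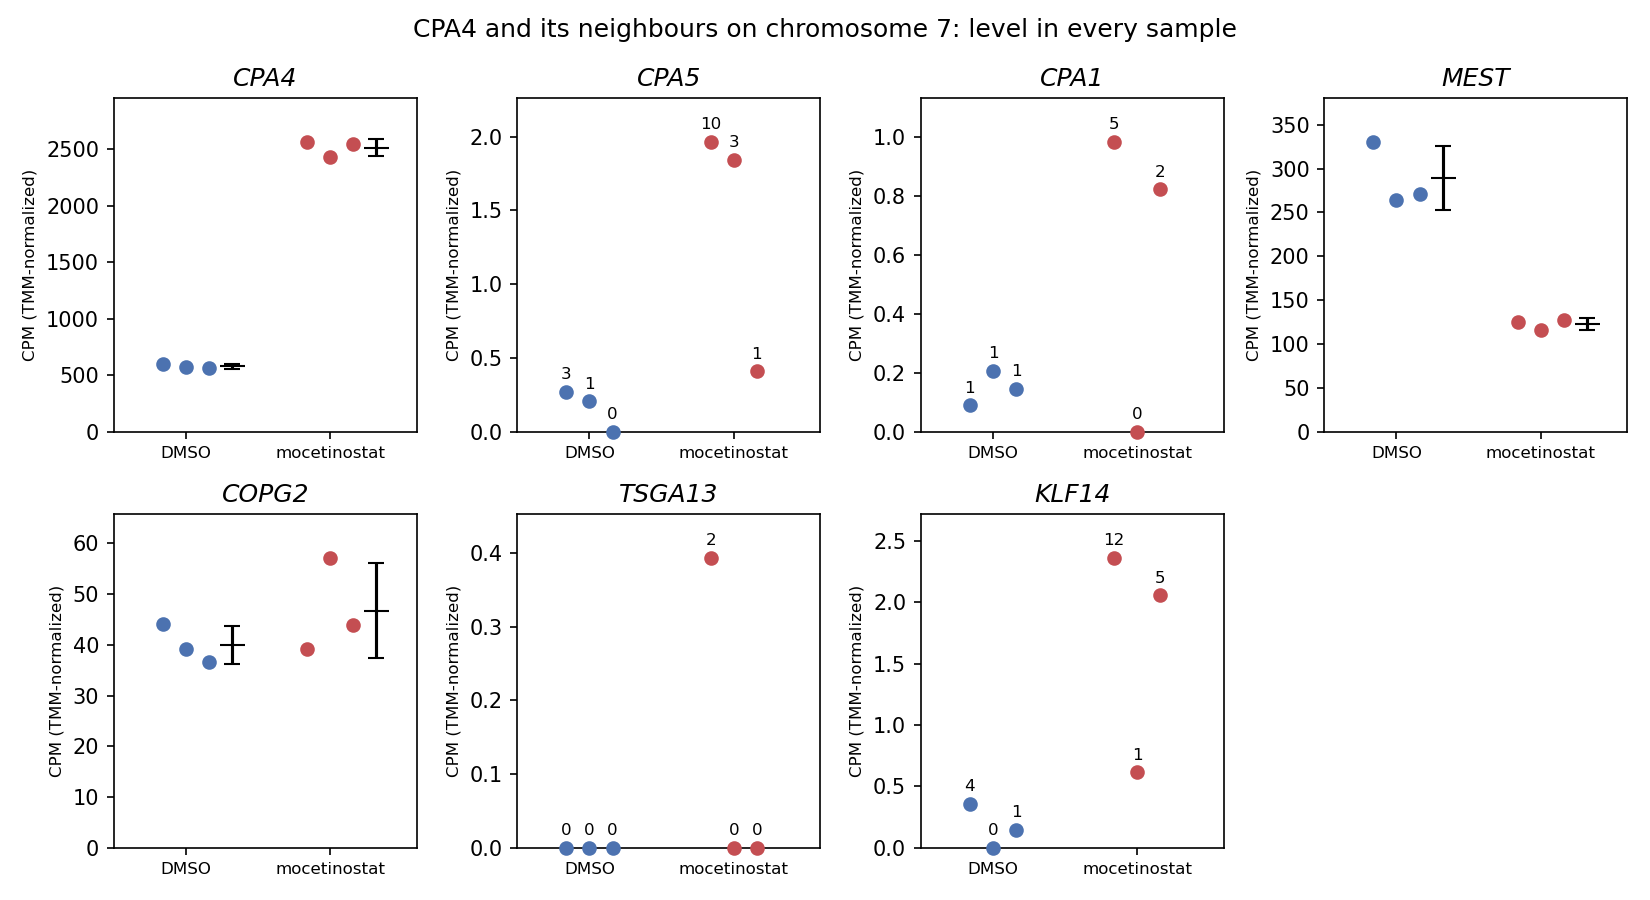
Level of each of the 7 genes in every sample (CPM scaled with TMM factors, each panel with its own axis from 0), DMSO in blue and mocetinostat in red. Black bars give mean ± SD (n = 3) for the genes that were tested or described by fold change, and numbers above the points give raw counts for the 4 genes with few reads. *CPA4* sits near 577 CPM with DMSO and near 2515 CPM with mocetinostat, *MEST* goes the other way, and the *COPG2* points overlap.

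*CPA4* was the most abundant of the 7 genes in every sample and had the highest fold change of those tested. It had 597, 575, and 560 CPM with DMSO and 2569, 2429, and 2547 CPM with mocetinostat, from 6647, 2783, and 3829 counts and 13060, 3951, and 6194 counts. Every treated sample lay more than 4-fold above every control sample, and the conditions were far from overlapping. The mean was 577 ± 18.5 CPM (SD, n = 3) with DMSO and 2515 ± 75.0 CPM with mocetinostat, a 4.36-fold difference (log2 fold change, 2.12; standard error, 0.06). These values were the reason for choosing the gene.

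As a share of all counts, *CPA4* went from 0.0603%, 0.0571%, and 0.0553% in DMSO replicates 1 to 3 to 0.257%, 0.244%, and 0.256% in mocetinostat replicates 1 to 3. The widest exact Clopper-Pearson 95% interval among these, that of mocetinostat replicate 2, was 0.236% to 0.252%. Intervals here cover counting error only and leave out the spread between samples. The sources used here name no molecular identifiers, so copies of the same molecule may be counted as separate reads. Per kb of exon, *CPA4* stood at rank 173, 184, and 199 among 60295 genes with DMSO and at rank 30 in each of the 3 mocetinostat samples.

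The neighbouring carboxypeptidase genes were barely detected. *CPA5* (chr7:130344816-130368730, plus strand), a carboxypeptidase A gene whose transcripts are known from testis, had 3, 1, and 0 counts in the DMSO samples and 10, 3, and 1 in the mocetinostat samples. *CPA1* (chr7:130380339-130388114, plus strand) had 1 count in each DMSO sample and 5, 0, and 2 in the mocetinostat samples. Mocetinostat samples had fewer reads in total, so these few reads amount to a higher CPM, but neither gene reached the filter and neither was tested.

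Counts were also pooled over each condition and divided by the summed library totals, each scaled with its TMM factor. On this scale *CPA5* had 0.175 CPM (exact Poisson 95% interval, 0.0478 to 0.449) with DMSO and 1.53 CPM (0.837 to 2.57) with mocetinostat. The ratio was 8.74 with a counting interval of 2.74 to 36.5. It was 17.9 without DMSO replicate 1 and 5.62 without mocetinostat replicate 1. The per-sample CPM of *CPA5* did not overlap between conditions. The pooled ratio for *CPA1* was 5.82 (1.33 to 34.9), or 3.75 without mocetinostat replicate 1, and its samples overlapped. When edgeR was run with no filter, the adjusted p was 0.0705 for *CPA5* and 0.428 for *CPA1*, and with DESeq2 it was 0.0808 and 0.393, so that neither passed. At this depth no difference in *CPA1* was detectable.

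*MEST* (ENSG00000106484) fell while *CPA4* was higher. Its level was 331, 264, and 272 CPM with DMSO and 125, 116, and 127 CPM with mocetinostat, from 3687, 1279, and 1857 counts and 638, 188, and 310 counts. DMSO replicate 1 was the highest sample, and the lowest DMSO sample was still more than 2-fold above the highest mocetinostat sample. The mean of 289 ± 36.6 CPM (SD, n = 3) with DMSO and 123 ± 6.36 CPM with mocetinostat gave a log2 fold change of -1.23 (standard error, 0.09), or 2.35-fold lower, with an adjusted p of 1.31e-19 by edgeR's quasi-likelihood test. *MEST* was therefore a DRG, the only one of the 7 genes. Leaving out each sample in turn kept the log2 fold change between -1.32 and -1.14. With scaling to *GAPDH* it was -0.69 (adjusted p = 1.26e-07), still a fall but short of the threshold for a DRG. Of the genes that share *MEST* exon sequence, *MESTIT1* had 5 counts or fewer and *AC007938.2* 6 or fewer in every sample, and the part of such overlaps in the *MEST* counts was not tested.

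Because *CPA4* and *MEST* were counted in the same libraries, their ratio does not depend on library scaling. Per kb of exon, there were 2.17, 2.62, and 2.48 *CPA4* reads for each *MEST* read with DMSO and 24.7, 25.3, and 24.1 with mocetinostat. The mean ratio went from 2.43 ± 0.230 (SD, n = 3) to 24.7 ± 0.624. Of the summed per-kb level of the 7 genes, *CPA4* made up 67.5 ± 2.01% with DMSO and 94.3 ± 0.242% with mocetinostat, and *MEST* 28.0 ± 1.89% and 3.82 ± 0.103%. No test is given for these ratios, because *CPA4* is part of each.

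**Figure D2:**
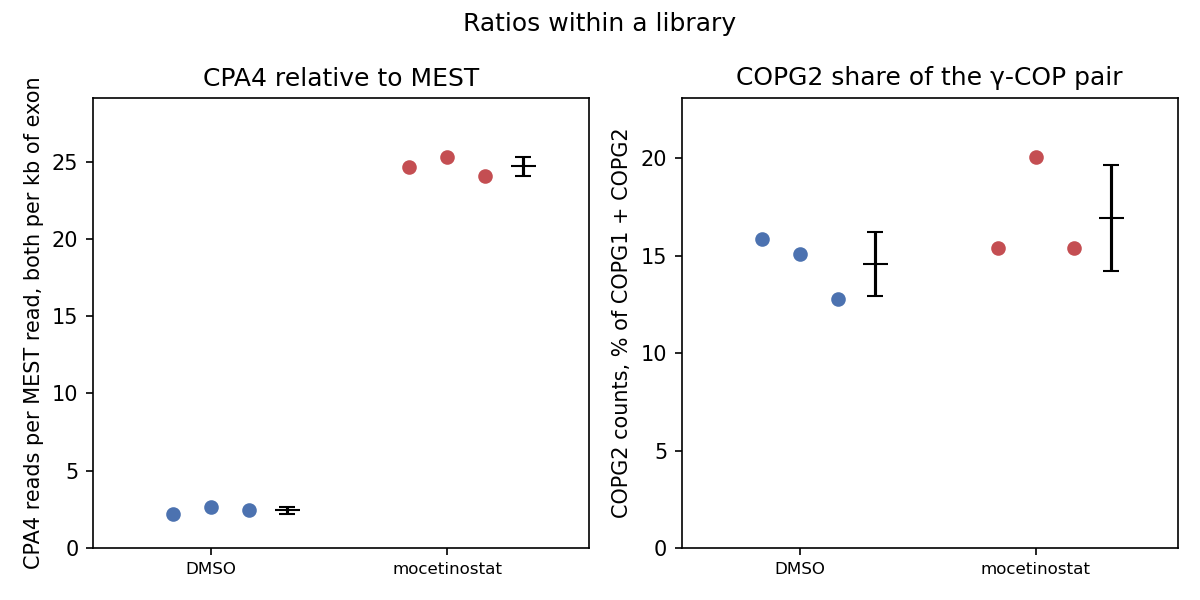
Left, *CPA4* reads per *MEST* read, both per kb of exon, in each sample. Right, *COPG2* counts as a percentage of *COPG1* plus *COPG2* counts. Points are samples and black bars give mean ± SD (n = 3). The ratio on the left lies between 2.17 and 2.62 with DMSO and between 24.1 and 25.3 with mocetinostat, whereas the shares on the right overlap.

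*COPG2* (ENSG00000158623), which meets *MEST* tail to tail, did not pass the test. It had 44.2, 39.3, and 36.7 CPM with DMSO and 39.1, 57.2, and 43.99 CPM with mocetinostat, from 492, 190, and 251 counts and 199, 93, and 107 counts. The highest value was that of mocetinostat replicate 2, the shallowest library, and the other 2 treated samples lay within the DMSO range. The mean was 40.0 ± 3.79 CPM (SD, n = 3) with DMSO and 46.8 ± 9.33 CPM with mocetinostat, for a log2 fold change of 0.17 with a standard error of 0.14 (adjusted p = 0.305 by edgeR's quasi-likelihood test). The value was 0.012 without mocetinostat replicate 2 and -0.082 without a filter. Scaling to *GAPDH* gave 0.71, which passed (adjusted p = 3.82e-05).

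*COPG1* encodes the other γ subunit of COPI, and the balance between these paralogs is again free of library scaling. *COPG2* held 15.9%, 15.1%, and 12.8% of the *COPG1* plus *COPG2* counts with DMSO and 15.4%, 20.1%, and 15.4% with mocetinostat. The exact Clopper-Pearson 95% interval of the highest value, in mocetinostat replicate 2, was 16.5% to 24.03%. The mean share was 14.6 ± 1.62% (SD, n = 3) and 17.0 ± 2.71%, a difference of 2.38 percentage points with a 2-sided exact permutation p of 0.4, where 0.1 is the smallest p that 3 against 3 samples allow. Without mocetinostat replicate 2 the difference was 0.811 percentage points. Of the 8 other COPI subunit genes, 7 were tested, and 0 rose and 3 fell by edgeR's quasi-likelihood test, against 31.4% of all genes tested that fell. The count of rises was also 0 at an unadjusted p under 0.05 and with DESeq2, but with scaling to *GAPDH* the list with *COPG2* had 5 rises and 0 falls. The median log2 fold change of the 7 was -0.10, against -0.0021 over all genes tested. The 3 that fell, named after their values were seen, were *COPZ1* (-0.71), *COPB1* (-0.42), and *ARCN1* (-0.37), which encode the ζ1, β, and δ subunits. With scaling to *GAPDH*, *COPB1* and *ARCN1* had positive values and *COPZ1* was at -0.17 (adjusted p = 0.260 by edgeR's quasi-likelihood test).

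*TSGA13* (chr7:130668643-130687432, minus strand) had 0 counts in the DMSO samples and 2, 0, and 0 counts in the mocetinostat samples. A count of 0 allows up to 0.131 CPM over the 3 DMSO samples, taking 3 counts as the limit. The 2 counts amount to 0.219 CPM over the 3 mocetinostat samples (exact Poisson 95% interval, 0.0265 to 0.790), which is under 3 counts, so no fold is given. The gene was thus not detectable at this depth in 5 of 6 samples.

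*KLF14* (chr7:130730697-130734207, minus strand) had 4, 0, and 1 counts in the DMSO samples and 12, 1, and 5 in the mocetinostat samples. These correspond to 0.219 CPM (exact Poisson 95% interval, 0.0711 to 0.511) and 1.97 CPM (1.17 to 3.11) over each condition. The ratio was 8.99 with a counting interval of 3.22 to 31.0, and 23.0 without DMSO replicate 1. The treated samples were all higher in CPM than the DMSO samples, but one of them rested on 1 read. *KLF14* missed the filter and has no call in the main test. With no filter, the adjusted p was 0.0259 by edgeR's quasi-likelihood test, and it was 0.0483 with DESeq2. *KLF14* passed the filter when any 1 DMSO sample or mocetinostat replicate 2 was left out, with an adjusted p between 0.00096 and 0.00932, but it did so only through mocetinostat samples in which it was high, so these fits give no support of their own. Of the 6 neighbours of *CPA4*, then, 2 could be tested, 0 rose, and 1 fell by edgeR's quasi-likelihood test, at adjusted as at unadjusted p under 0.05, while 64.3% of all genes tested rose or fell.

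To place these genes in their surroundings, the genes lying within 1 Mb outward of the outermost 2 were read from the same fit. This interval, chr7:129293134-131734207, held 66 genes of the table. Besides *CPA4*, 15 of 65 were tested, of which 4 rose, 6 fell, and 5 did not pass. Their median log2 fold change was -0.27, against -0.0021 over all genes tested, and the shares over all genes tested were 32.9% for rises and 31.4% for falls. Of the 65, 46 never reached 10 counts in a sample, including 13 with 0 counts throughout.

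**Figure D3:**
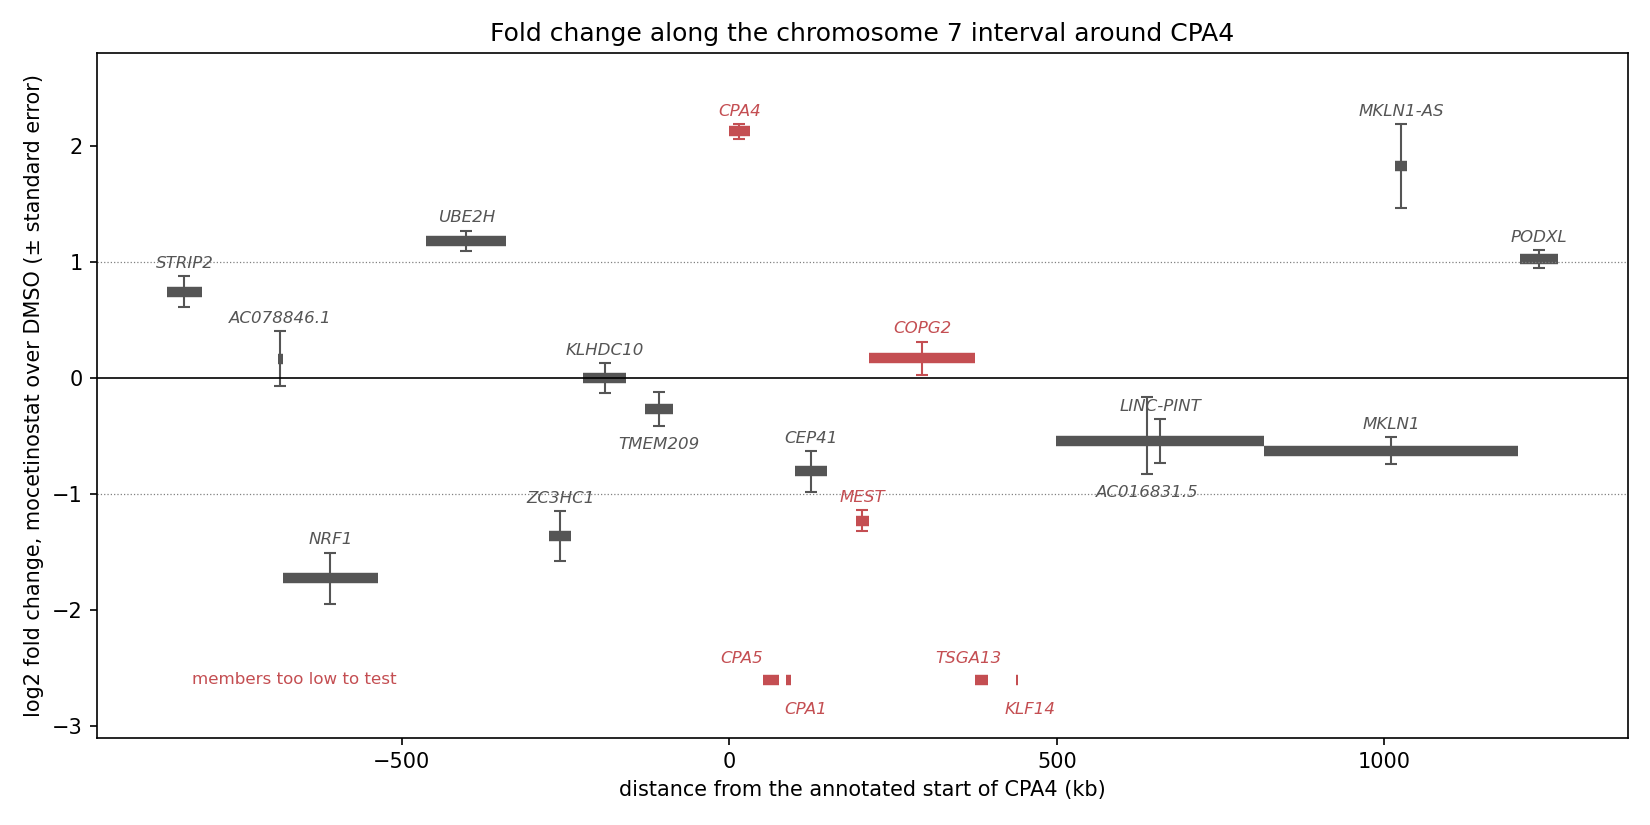
Log2 fold change (mocetinostat over DMSO, ± standard error) of the tested genes around *CPA4*, plotted at the distance of the gene body from the annotated start of *CPA4* in kb. Bars span the gene bodies, red marks the 7 genes described here, the dotted lines mark the threshold of 1 in either direction, and the 4 genes too low to test are shown by position only. *CPA4* at 2.12 is the highest point, and genes on both sides of it have values above and below 0.

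Changes of both signs lay on each side of *CPA4*. On the side of *CPA4* away from *MEST*, *UBE2H*, a ubiquitin-conjugating enzyme, went from 123 ± 10.2 to 279 ± 23.2 CPM (log2 fold change, 1.18; adjusted p = 1.71e-19 by edgeR's quasi-likelihood test). In the same direction from *CPA4*, *ZC3HC1*, which encodes a protein of the nuclear pore basket, went from 27.2 ± 5.47 to 11.2 ± 2.24 CPM (-1.36; adjusted p = 6.24e-08). *NRF1*, which encodes a transcription factor of nuclear genes for mitochondrial proteins, went from 26.8 ± 3.67 to 8.09 ± 0.621 CPM (-1.73; adjusted p = 1.86e-10). Conditions did not overlap for any of these 3 genes.

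Beyond *KLF14*, *PODXL*, which encodes the sialomucin podocalyxin, went from 265 ± 24.4 to 539 ± 15.4 CPM (log2 fold change, 1.03; adjusted p = 1.61e-19 by edgeR's quasi-likelihood test). *MKLN1-AS*, counted among the 4 rises, had 38, 11, and 13 counts in the DMSO samples and 51, 14, and 22 in the mocetinostat samples (log2 fold change, 1.82). It was the 1 gene of the interval that passed the filter only through the mocetinostat samples, where it was high, so its call gives no support of its own, and 1.71% of its exon length overlaps *MKLN1*, the gene on the opposite strand. *CEP41*, named after its values were seen because it lies between *CPA1* and *MEST*, encodes a centrosomal protein and fell by 0.81 on the log2 scale (adjusted p = 5.00e-05), from 33.4 ± 3.41 to 19.7 ± 2.15 CPM. With scaling to *GAPDH*, *CEP41* was at -0.26 and did not pass (adjusted p = 0.184 by edgeR's quasi-likelihood test).

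Other genes of the same enzyme family lie elsewhere in the genome. Of the 22 other carboxypeptidase genes, 9 were tested, 4 rose, all of them URGs, 1 fell, and 4 did not pass, and their median log2 fold change was 0.31. Over all genes tested, 32.9% rose, 31.4% fell, and 20.2% were URGs, with a median of -0.0021. The gene for membrane-bound carboxypeptidase M, *CPM* (not the unit), went from 9.98 ± 0.225 to 100.1 ± 4.20 in that unit (log2 fold change, 3.32; adjusted p = 1.63e-32 by edgeR's quasi-likelihood test). *AGTPBP1*, an enzyme that removes glutamates from tubulin, went from 17.1 ± 1.53 to 74.4 ± 4.87 CPM (2.12; adjusted p = 4.67e-22). *CPE*, which trims prohormones, went from 13.8 ± 1.34 to 44.5 ± 5.62 CPM (1.70; adjusted p = 3.49e-14). All 3 were without overlap between conditions.

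*AGBL2*, another tubulin carboxypeptidase, had 11, 9, and 10 counts in the DMSO samples and 14, 5, and 10 in the mocetinostat samples (log2 fold change, 1.24; adjusted p = 0.0355 by edgeR's quasi-likelihood test). It passed the filter only through the mocetinostat samples and lost its call in 5 of 6 fits with 1 sample left out, staying under 0.05 only without DMSO replicate 2. *AGBL5*, named after its values were seen, was the member that fell (-0.72; adjusted p = 0.00175), with a value of -0.34 and adjusted p of 0.184 without mocetinostat replicate 1. The other 13 genes of the family were not tested, and 10 never reached 10 counts. Of the 2 inhibitors of these enzymes, *LXN* had 34, 27, and 20 counts and 17, 12, and 15 counts (log2 fold change, 0.47; adjusted p = 0.322), and *RARRES1* had 3 counts or fewer in every sample.

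**Figure D4:**
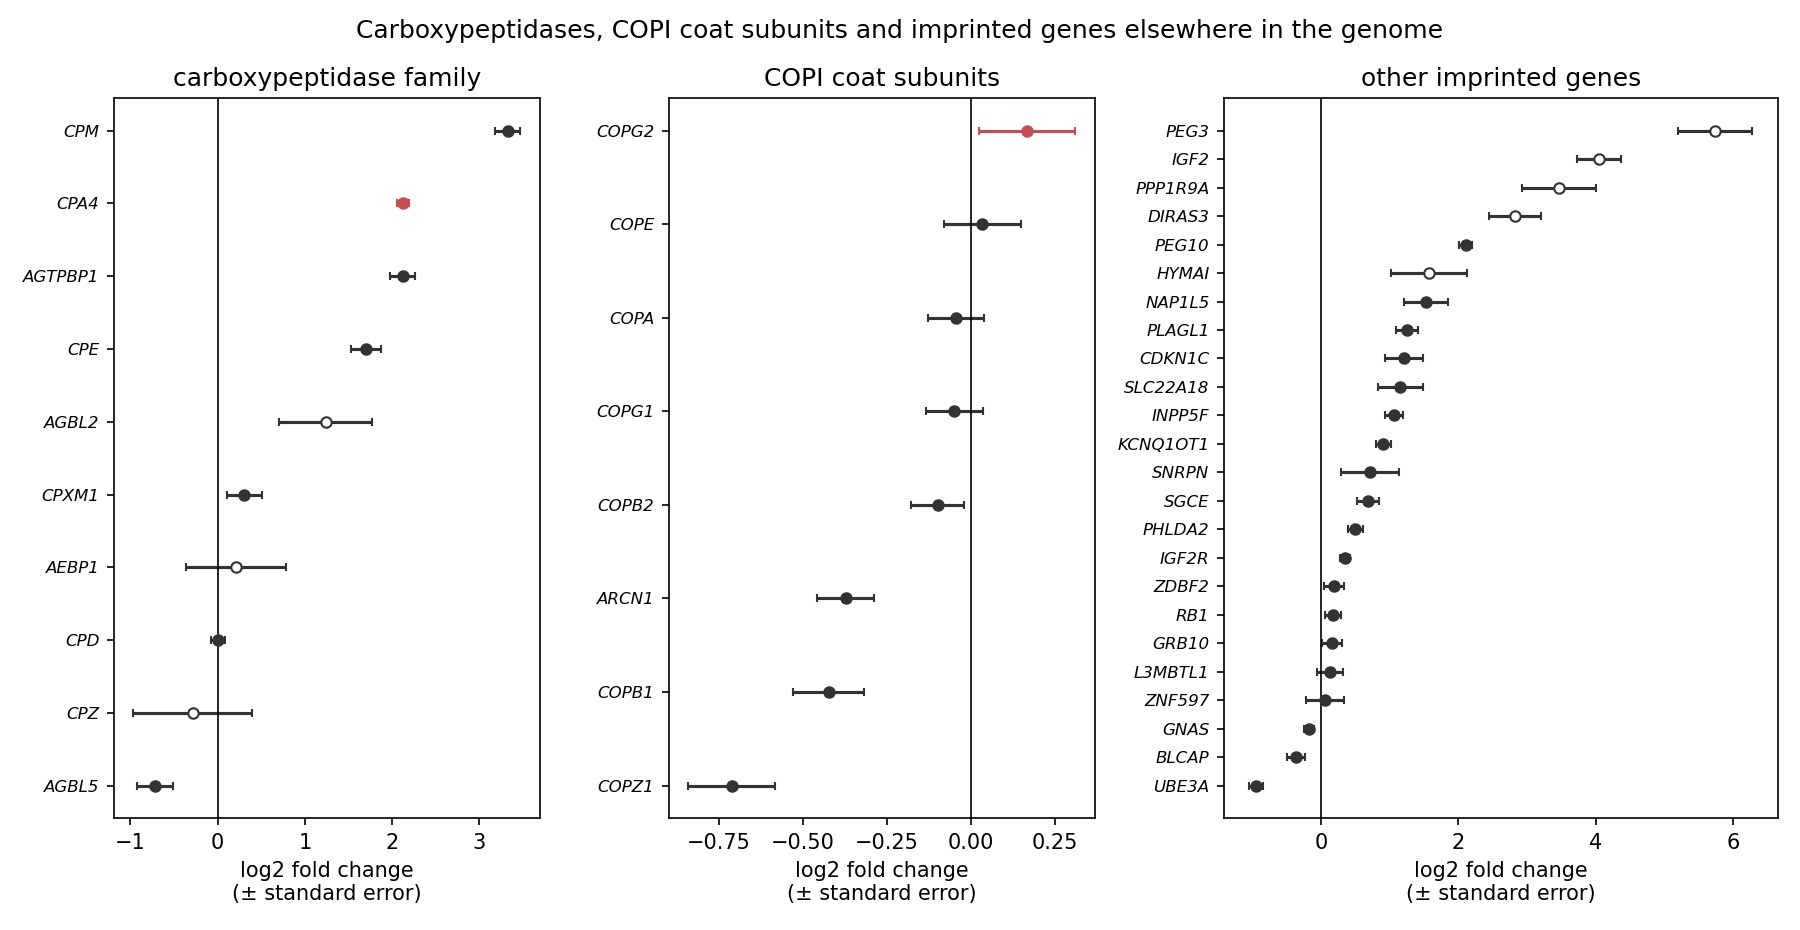
Log2 fold change (mocetinostat over DMSO, ± standard error) of the tested genes of 3 lists, each panel with its own axis. Red marks *CPA4* and *COPG2*, and open circles mark genes that did not reach the filter value in all DMSO samples. Carboxypeptidases range from -0.72 to 3.32, COPI subunits stay between -0.71 and 0.17, and imprinted genes outside the *MEST* cluster range from -0.94 to 5.73.

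*MEST* was compared with 39 well-established imprinted genes outside its cluster. Of these, 24 were tested, 15 rose and 3 fell, with 11 URGs and no DRG, and the median log2 fold change was 0.81. Over all genes tested, 32.9% rose, 31.4% fell, 20.2% were URGs, and 8.18% were DRGs, with a median of -0.0021. Of the 24, 5 passed the filter only through the mocetinostat samples. The 4 highest were *PEG3*, a zinc finger gene, at 5.73, *IGF2*, a growth factor gene, at 4.05, *PPP1R9A*, which encodes an actin-binding protein, at 3.47, and *DIRAS3*, which encodes a small GTPase, at 2.83. All 4 passed the filter only through the mocetinostat samples. *PEG3*, for example, had 1, 4, and 0 counts in the DMSO samples and 57, 19, and 41 in the mocetinostat samples, and its log2 fold change was 7.36 without DMSO replicate 2 and 5.11 without DMSO replicate 1. *IGF2* had 13, 2, and 18 counts and 122, 42, and 57 counts, and reached 4.65 without DMSO replicate 3. After thinning to the smallest total, *DIRAS3* was at 3.82 and *PEG3* at 4.79. Among the 19 that passed the filter through DMSO samples, 10 rose and 3 fell, with 6 URGs and a median of 0.50.

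The 4 lowest of these imprinted genes were *UBE3A*, a ubiquitin ligase gene, *BLCAP*, *GNAS*, which encodes a G protein α subunit, and *ZNF597*. *UBE3A* fell by 0.94 on the log2 scale (adjusted p = 5.37e-13 by edgeR's quasi-likelihood test). *BLCAP* had a value of -0.37 (adjusted p = 0.0102, or 0.107 without mocetinostat replicate 1), *GNAS* of -0.17 (adjusted p = 0.0184), and *ZNF597* of 0.05 (adjusted p = 0.877). With scaling to *GAPDH*, *BLCAP* had a positive value and *GNAS* rose (0.35; adjusted p = 0.000213 by edgeR's quasi-likelihood test), and *GNAS* did not pass with at least 10 counts in every sample (adjusted p = 0.202) or after thinning (adjusted p = 0.0828). None of the 24 tested genes of this list was below the -1.23 of *MEST*, although the difference between *MEST* and the list was not tested.

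The profile of *CPA4* over the 6 samples was compared with those of 10240 genes with a mean of at least 10 CPM, by the distance between log2 CPM values centred on each gene's mean. The nearest were *TLN2* (distance, 0.104), which encodes talin 2, *AGTPBP1* (0.156), *TDRKH* (0.158), which encodes a tudor domain protein of the piRNA pathway, *PEG10* (0.158), a retrotransposon-derived imprinted gene, and *AFAP1L2* (0.159), which encodes an actin filament-associated adaptor. *TLN2* had 38.1, 35.3, and 35.7 CPM with DMSO and 168, 165, and 170 CPM with mocetinostat. *PEG10*, also on chromosome 7 but outside this interval, had 59.0, 59.1, and 62.1 CPM and 275, 249, and 248 CPM. The fold changes of these 5 genes lay between 4.08 and 4.59, close to the 4.36 of *CPA4*, as the measure of likeness requires. The same 5 genes came out nearest when CPM were computed with library size only.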

How the data were processed

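RNA-Seq was analyzed in 6 samples of TC28a2 cells, 3 per condition. The authors deposited 1 table of raw counts per gene, made by trimming adapters, removing ribosomal reads, aligning single reads of 100 bp to GRCh38 (Ensembl annotation) with STAR version 2.6.1d, and assigning them with featureCounts version 1.6.4. How multimapping reads were treated is not given in the sources used here. TMM factors were computed in edgeR version 4.0.16 (limma 3.58.1, R 4.3.3), and its filterByExpr (minimum count 10) left 13966 of 60623 genes. Treatment was the single term of the quasi-likelihood fit, and Benjamini-Hochberg adjustment covered every gene tested. CPM used the TMM factors, and profiles used log2 CPM with a prior count of 2. Positions and exons are from GENCODE release 44, to which 99.5% of genes matched. Python 3.11.15, pandas 2.3.3, SciPy 1.17.1, and matplotlib 3.10.9 were used.

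The 7 genes and all lists were chosen with earlier results of these data known. Named are the 7 genes, genes of the interval passing both thresholds, list members passing both thresholds (where these were more than 8, the 4 highest and 4 lowest of all tested members instead), the 5 genes nearest to *CPA4*, and *GAPDH*. Each choice was varied in turn: DESeq2 version 1.42.0 as the test, *GAPDH* scaling, library size alone, RLE size factors, no filter, at least 10 counts in every sample, glmTreat, a replicate block, thinning to the smallest total, and leaving out each sample. Of these steps, the edgeR fit was tested on simulated counts. Depth, from 1619344 to 11031132 counts per sample, limits genes with few reads.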

Additional observations from a re-analysis of the deposited data

How the results depend on the processing

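Over 15 alternatives, *MEST* stayed between -1.48 and -0.69 on the log2 scale with an adjusted p of at most 1.26e-07 by edgeR's quasi-likelihood test or DESeq2, and of 0.0104 by glmTreat. *GAPDH* itself had a log2 fold change of -0.53, so scaling to it raised the median of the 13966 genes tested by 0.54, and testing with no filter shifted the median of those same genes by -0.25. The value of *CPA4* was 2.65 with *GAPDH* scaling, 2.20 with at least 10 counts in every sample, 1.87 with no filter, 2.24 after thinning, and 2.08 to 2.13 with 1 sample left out. *COPG2* was 0.71 with *GAPDH* scaling (adjusted p = 3.82e-05) and -0.082 with no filter. The number of neighbours that rose went from 0 to 1 with *GAPDH* scaling (*COPG2*), and to 1 with DESeq2 and with no filter (*KLF14* in both), and was 0 to 1 with 1 sample left out (*KLF14*, without any DMSO sample or mocetinostat replicate 2).

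With *GAPDH* scaling, the interval had 7 rises and 3 falls, the COPI list 5 rises and 0 falls, the carboxypeptidases 0 falls, and the imprinted list 1 fall, while *COPB1* (0.11), *ARCN1* (0.16), *BLCAP* (0.17), and *GNAS* (0.35) changed sign. With glmTreat, which tests against an absolute log2 fold change of 1, the interval had 2 rises and 2 falls, the COPI list 0 falls, the carboxypeptidases 0 falls, and the imprinted list 5 rises and 0 falls. With no filter, the interval had 7 rises, the carboxypeptidases 2 falls, the COPI list 6 falls, and the acinar markers 1 rise, and *ZNF597* was -0.19. The carboxypeptidases had 0 falls with DESeq2 and after thinning, and 0 to 1 without 1 sample (0 without mocetinostat replicate 1). *ZNF597* lay between -0.13 and 0.25 with 1 sample left out.

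Samples with the same replicate number did not deviate together (correlations of 0.0078, 0.012, and -0.016), so the numbers were not taken to pair the samples. With the replicate number as a block, 4518 genes rose and 4331 fell, against 4597 and 4388 without it, and *AGBL2* lost its call (adjusted p = 0.0539). The number of reads limits *CPA5*, *CPA1*, *TSGA13*, and *KLF14*, whose values rest on at most 12 counts in a sample.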

Other observations

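Transcripts within or beside the *MEST* and *COPG2* loci had too few reads to test. The antisense transcript *MESTIT1* had 3, 3, and 0 counts in the DMSO samples and 5, 1, and 2 in the mocetinostat samples, a pooled ratio of 3.33 with a counting interval of 1.01 to 11.6. *COPG2IT1*, an imprinted transcript on the opposite strand of *COPG2*, had 9, 3, and 8 counts in the DMSO samples and 12, 4, and 3 in the mocetinostat samples, a ratio of 2.37 (1.20 to 4.68). The microRNA gene *MIR335*, which lies in an intron of *MEST*, had 2, 2, and 0 counts with DMSO and 0 in the mocetinostat samples, where a count of 0 allows up to 0.328 CPM. None of these 3 had an adjusted p under 0.05 with no filter by edgeR's quasi-likelihood test, which gave 0.487, 0.424, and 0.408.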
